A study of Mus musculus with 12 samples.

Results

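The genes described here encode ionotropic and metabotropic glutamate receptors and the scaffold proteins that hold them under the postsynaptic membrane. They were taken by symbol, and all 36 symbols were found among the 21872 in the table. The set holds 4 AMPA receptor subunit genes (Gria1 to Gria4), 1 delta subunit gene (Grid1), 5 kainate (Grik1 to Grik5), 6 NMDA (Grin1, Grin2a to Grin2d, Grin3a) and 6 metabotropic receptor genes (Grm2 to Grm5, Grm7, Grm8). The scaffolds are 4 MAGUK genes (Dlg1 to Dlg4), 4 SAPAP genes (Dlgap1 to Dlgap4), 3 Shank genes and 3 Homer genes. None of them was among the 1830 symbols whose values are multiples of 11 throughout, a part of the table that does not hold plain read counts. All 36 passed the filter on low counts in each comparison.

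RNA of prefrontal cortex and of striatum was sequenced in bulk. The mice were of the C57BL/6J strain and aged 24 days (P24). The 4 groups hold 3 libraries each: both regions of mice treated with 6-hydroxydopamine (6-OHDA), a toxin that destroys dopamine neurons, as a model of ADHD, and both regions of control mice. The labels mark the treated mice as ADHD and name no transgene, and both arms share strain and age; lesioned below stands for that label. The sources used here do not give the dose, route or day of treatment, what the controls received, or whether replicate libraries stem from different mice. The p-values therefore measure the spread among replicate libraries, which may be technical.

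At an excitatory synapse, AMPA receptors carry most of the fast current, NMDA receptors admit calcium when glutamate binding and depolarisation coincide, and kainate receptors modulate both sides of the synapse. Metabotropic receptors act through G proteins: Grm5 belongs to group I, which couples to phospholipase C, Grm2 and Grm3 to group II and Grm4, Grm7 and Grm8 to group III, which lower cAMP. The MAGUK protein PSD-95 (Dlg4) binds NMDA receptors and, through their auxiliary subunits, AMPA receptors; SAPAP proteins join it to Shank, and Homer joins Shank to group I metabotropic receptors. Projection neurons of the striatum receive glutamate from the cortex and dopamine from the midbrain, and Dlgap3 and Shank3 are among their postsynaptic scaffold genes.

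Total counts ranged from 15078631 to 20925452 per library, and the 36 genes took 1.03% to 1.09% of them in prefrontal cortex and 0.768% to 1.02% in striatum. Values are CPM, counts scaled to a library total of 1000000, so that 3 counts, the limit set by counting error alone, are 0.143 to 0.199 CPM. The labelled regions carried their markers: 14 cortical excitatory neuron markers summed to 3825 to 4087 CPM in the prefrontal libraries and 533.9 to 1454 in the striatal ones, and 15 striatal projection neuron markers to 885.5 to 1663 and 3034 to 14860 CPM. A further 11 hypothalamic and border markers summed to 298.2 to 389.3 CPM in the prefrontal libraries and 796.9 to 2306 in the striatal ones. A pair of striatal libraries stood apart. Control library 2 had 1454 CPM of the cortical markers against 533.9 and 596.4 in the other controls, with Neurod6 at 95.1 CPM, the vesicular glutamate transporter Slc17a7 at 721.8 and the choroid plexus gene Ttr at 2090. Lesioned library 1 had 14860 CPM of projection neuron markers against 6337 and 8966 in the other lesioned libraries. Lesion effects in striatum are given also without these libraries.

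In prefrontal cortex, 9 of the 36 genes passed the test of the lesion, of which 5 rose and 4 fell. The metabotropic receptor genes Grm3, Grm7 and Grm2, the AMPA subunit gene Gria4 and the scaffold gene Shank1 rose. PSD-95 (Dlg4), Homer1, the SAPAP gene Dlgap3 and the NMDA subunit gene Grin2c fell. The rises were small, from 1.13-fold to 1.23-fold. The falls were to between 0.73 (Grin2c) and 0.89 (Dlgap3) of the control level. In the test of lesioned against control libraries of this region (edgeR's quasi-likelihood test on the 6 libraries, Benjamini-Hochberg adjustment over 14018 genes, calls at an adjusted p below 0.05), 5.73% of all genes were called, 3.45% higher and 2.28% lower. The median log2 fold change of the 36 was 0.02, beside -0.01 for all genes tested, with 23 above 0 and 13 below, against 48.4% and 51.6% of all genes. In 17 of the 36 no lesioned library overlapped a control, 10 on the higher side and 7 on the lower, against 26.1% of all genes tested (12.3% higher, 13.7% lower). In bulk tissue, fewer cells of a type and less RNA per cell cannot be told apart.

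Dlg4 encodes PSD-95, the most abundant scaffold of the excitatory postsynaptic density, and lies on chromosome 11 at 70016942 to 70047522 (mm10). Control prefrontal libraries 1 to 3 had 1125, 1114 and 1138 CPM of Dlg4, and lesioned libraries 1 to 3 had 953.8, 968.4 and 959.5. The groups were far apart for the narrow spread within each, 1126 ± 12.1 and 960.6 ± 7.396 CPM (SD, n = 3 each). The log2 fold change was -0.22 (SE 0.04, adjusted p = 0.0045 by edgeR). Dlg4 stayed past the threshold with any 1 of the 6 libraries left out (adjusted p from 0.0025 to 0.0377).

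Homer1 encodes a scaffold whose long forms tie Shank to group I receptors and whose short form, Homer1a, is induced by activity and breaks those ties; counts per gene do not tell the forms apart. It lies on chromosome 13 at 93299635 to 93405129. Control libraries 1 to 3 had 331.0, 398.6 and 311.2 CPM, and lesioned ones 259.0, 265.5 and 263.6. Each lesioned library was lower than each control, and control library 2 was the highest. The log2 fold change was -0.40 (SE 0.08, adjusted p = 0.0105 by edgeR). Without lesioned library 2 Homer1 was at -0.41 and was not called (adjusted p = 0.0627).

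Transcription of Homer1 follows neuronal activity. The 250 bases before one of its 2 RefSeq start sites (GRCm38.p6, chr13:93303507-93303756, plus strand) are shown because they hold 3 copies of TGACGT, letters that also occur in the cAMP response element. In the sequence below capitals mark TGACGT, which was searched on both strands, so that the full palindrome of the element would count as 2 overlapping matches. In the GENCODE vM21 annotation the stretch lies in an intron of a longer non-coding Homer1 transcript.
Homer1: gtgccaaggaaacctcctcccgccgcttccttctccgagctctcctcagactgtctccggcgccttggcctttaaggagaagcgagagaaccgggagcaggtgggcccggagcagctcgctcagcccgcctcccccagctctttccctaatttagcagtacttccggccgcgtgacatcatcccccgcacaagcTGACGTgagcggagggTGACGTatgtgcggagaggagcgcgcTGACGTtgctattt
The copies begin 56, 40 and 14 bases before the start site. Of all 32851 RefSeq windows of this length, 6.47% hold at least 1 copy and 0.152% at least 3. Among the set, 24 genes had 38 such windows, and the Homer1 window was the one with a match. These matches are a description of letters in the window.

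Dlgap3, which encodes SAPAP3, lies on chromosome 4 at 127169204 to 127237022. It had 565.3, 559.8 and 569.3 CPM in control prefrontal libraries and 491.9, 514.3 and 491.9 in lesioned ones. The groups did not overlap, and the log2 fold change was -0.17 (SE 0.04, adjusted p = 0.0273 by edgeR). Dlgap3 was not called without lesioned library 1 (adjusted p = 0.135), 2 (0.076) or 3 (0.122) or control library 1 (0.0715), nor after correcting for transcript length and GC content (-0.16, adjusted p = 0.117).

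Grin2c encodes the NMDA subunit GluN2C, found in cerebellar granule cells and, in the forebrain, also in astrocytes. It lies on chromosome 11 at 115249169 to 115267243. Its levels were 59.9, 48.8 and 52.4 CPM in controls and 43.4, 42.9 and 31.3 after the lesion. Lesioned library 3 was the lowest, and each lesioned library was below each control (log2 fold change -0.45, SE 0.11, adjusted p = 0.0252 by edgeR). It was not called without lesioned library 2 (adjusted p = 0.0626) or 3 (-0.31, 0.0721) or control library 1 (-0.36, 0.0723).

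Astrocyte markers moved the same way as Grin2c in this region, while the 5 members called higher, Grm3 among them, moved the other way. Of 11 markers 7 fell and 0 rose, with a median log2 fold change of -0.23, and their summed level was 6489 to 6600 CPM in controls and 5733 to 5869 after the lesion. The part of astrocyte RNA in the fall of Grin2c and in the other members' changes was not tested.

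Grm3, a group II receptor gene on chromosome 5 at 9485541 to 9725170, had the largest rise among the 36 in prefrontal cortex. It had 76.6, 82.6 and 77.6 CPM in controls and 90.6, 99.2 and 99.2 after the lesion, so that the groups did not overlap. The log2 fold change was 0.29 (SE 0.06, adjusted p = 0.0123 by edgeR). It was not called without lesioned library 2 (0.27, adjusted p = 0.0845) or 3 (0.27, 0.0661).

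Grm7, a presynaptic group III receptor gene on chromosome 6 at 110645581 to 111567230, had 56.8, 58.0 and 63.7 CPM in controls and 70.6, 71.3 and 70.2 after the lesion. The lesioned libraries had an SD of 0.523 CPM and lay above each control (log2 fold change 0.26, SE 0.05, adjusted p = 0.0156 by edgeR). Without lesioned library 1, 2 or 3 or control library 1 its adjusted p was 0.0562, 0.0876, 0.062 and 0.0619. Grm2, the other group II gene, on chromosome 9 at 106643095 to 106656082, went from 72.0, 64.4 and 68.3 CPM to 81.4, 78.6 and 76.1 (0.21, SE 0.05, adjusted p = 0.0386). Every lesioned library was again above every control, but the call ended without any 1 library other than control 1 (adjusted p from 0.072 to 0.153). Grm4 (0.17), Grm5 (0.11) and Grm8 (0.07) were above 0 as well and were not called, so that the 6 metabotropic genes had a median log2 fold change of 0.19, with 3 called higher and 0 lower.

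Shank1, which encodes the Shank protein of mature cortical and hippocampal spines and lies on chromosome 7 at 44310253 to 44360572, had 749.7, 737.5 and 712.9 CPM in control prefrontal cortex. After the lesion it had 815.5, 868.6 and 790.7, each above each control (log2 fold change 0.18, SE 0.05, adjusted p = 0.0431 by edgeR). Shank2 and Shank3 lay on the other side of 0 at -0.17 (adjusted p = 0.0543) and -0.13 (adjusted p = 0.107), without overlap between groups and without passing the test. Shank3 had 340.6, 342.6 and 355.4 CPM in controls and 323.1, 320.5 and 302.2 after the lesion. The Shank1 call ended without lesioned library 1 (adjusted p = 0.105), 2 (0.229) or 3 (0.073) or control library 1 (0.0689) or 3 (0.105). Corrected for transcript length and GC content, Shank1 was at 0.13 (adjusted p = 0.217), and Shank2 was called at -0.23 (adjusted p = 0.0268).

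Among the AMPA subunit genes, Gria4 rose from 133.8, 139.8 and 128.0 CPM to 154.5, 154.2 and 149.2 (log2 fold change 0.20, SE 0.05, adjusted p = 0.0453 by edgeR). The groups did not overlap, and the call ended without any 1 library other than control 2 (adjusted p from 0.1 to 0.182). Gria1, which encodes the subunit best known for activity-dependent insertion, had 406.4, 398.5 and 388.5 CPM in controls and 373.2, 391.2 and 393.0 after the lesion, with overlapping groups (-0.04, adjusted p = 0.690). Gria2, whose edited subunit keeps the channel closed to calcium, had 823.1, 767.8 and 791.8 against 829.3, 848.1 and 810.2 CPM (0.07, adjusted p = 0.376).

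The NMDA genes other than Grin2c did not pass the test in prefrontal cortex. The obligatory subunit gene Grin1 had 613.5, 587.2 and 634.3 CPM in controls and 634.7, 638.7 and 597.6 after the lesion (0.03, adjusted p = 0.700). Grin2a, which replaces Grin2b in much of the postnatal forebrain, had 271.0, 306.8 and 274.9 against 268.6, 282.7 and 290.0 CPM (-0.01, adjusted p = 0.931). Grin2b had 735.5, 935.4 and 756.0 against 822.1, 915.8 and 895.7 CPM (0.12, adjusted p = 0.430). Over libraries left out Grin2b ran from 0.0563 to 0.255, and it was called higher in 1 of 15 alternative settings. The ratio of Grin2a to Grin2b counts, which does not depend on library scaling, was 0.368, 0.328 and 0.364 in controls and 0.327, 0.309 and 0.324 in lesioned libraries, without overlap between groups. Its log2 difference was -0.14 (two-sided exact permutation test, p = 0.1, 0.2 after adjustment over 18 ratio tests; 0.1 is the smallest p that 3 against 3 allows). The ratio of Dlg4 to Dlg1, a MAGUK found along the secretory route as well as at synapses, was 5.23, 4.79 and 5.36 in controls and 4.33, 4.51 and 4.31 after the lesion (log2 difference -0.22, exact permutation p = 0.1).

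Of the 5 kainate genes none passed the test in prefrontal cortex. Grik1 (0.27, adjusted p = 0.136) and Grik3 (0.17, adjusted p = 0.149) had groups that did not overlap, while Grik2, Grik4 and Grik5 lay between -0.08 and 0.04. Grid1, whose product binds cerebellins, was at 0.02. The remaining scaffold genes were Dlg1 at 0.00, Dlg2 at -0.13, Dlg3 at 0.01, Dlgap1 at 0.11, Dlgap2 at 0.13, Dlgap4 at -0.07, Homer2 at 0.01 and Homer3 at -0.08, with adjusted p of 0.156 or more.

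**Figure D1:**
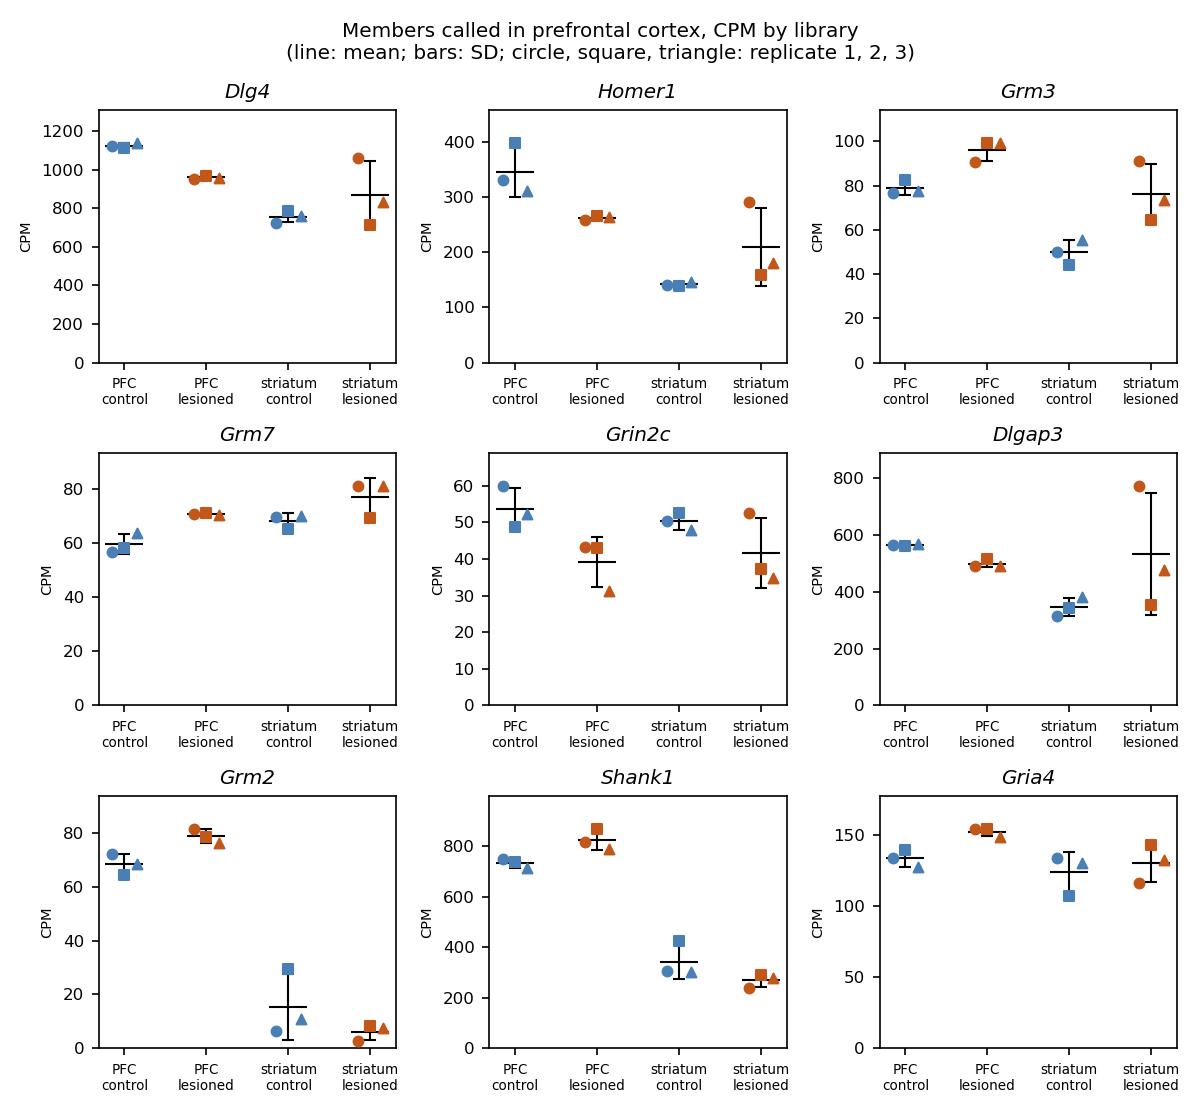
CPM (y axis, linear from 0) of the 9 genes called in prefrontal cortex, in each of the 12 libraries (x axis, 4 groups of 3); lines are means and bars SD. In the prefrontal groups no lesioned library overlaps a control for these 9 genes, with Dlg4 at 953.8 to 968.4 CPM after the lesion and 1114 to 1138 in controls, while lesioned striatal library 1 (circle) lies apart for Dlg4, Homer1 and Dlgap3.

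These calls rest on the spread among prefrontal libraries, whose biological coefficient of variation was 5.78%. When all 12 libraries entered 1 fit, which takes a spread of 11.3%, 0 of the 36 were called in prefrontal cortex, with Dlg4 at -0.21 (adjusted p = 0.629) and Homer1 at -0.39 (adjusted p = 0.519) by edgeR. Correcting for transcript length and GC content left 16 of the 36 above 0 and 20 below, against 23 and 13 without it, and called 4 higher and 5 lower, 7 of them among the 9 named above.

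Other genes of the synapse were taken from lists drawn up by function. Of 15 auxiliary subunit genes 1 fell and 0 rose in prefrontal cortex: Cnih2, which encodes a cornichon that slows AMPA receptor closing, went from 231.0, 220.5 and 218.2 CPM to 174.0, 179.6 and 171.5 (-0.35, SE 0.05, adjusted p = 0.0014 by edgeR). Cacng4 (-0.22, adjusted p = 0.0690) and Frrs1l (0.23, adjusted p = 0.0691), the next by p, were not called. Of 23 postsynaptic signalling and trafficking genes 2 rose, the guanine exchange factor gene Kalrn (0.23, adjusted p = 0.0040) and Sipa1l1 (0.22, adjusted p = 0.0109), and 1 fell, Baiap2 (-0.18, adjusted p = 0.0364). Of 20 synaptic adhesion genes Nrxn3 rose (0.28, adjusted p = 0.0066) and Lrrtm1 fell (-0.23, adjusted p = 0.0321), and Ptprs was at 0.16 (adjusted p = 0.0628). Of 8 genes for glutamate transport and synthesis the glial transporter genes Slc1a3 (-0.23, adjusted p = 0.0152) and Slc1a2 (-0.17, adjusted p = 0.0329) fell; both are also among the 11 astrocyte markers. The 4 receptor genes outside the set gave 2 that were tested and 0 called. For these lists the medians were -0.05, 0.00, 0.02, -0.07 and 0.03 on the log2 scale.

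Markers of other cell types were measured in the same prefrontal libraries. Cortical excitatory neuron markers summed to 3884 to 4087 CPM in controls and 3825 to 4040 after the lesion, with 2 of 14 called higher and 0 lower. Of 15 striatal projection neuron markers 14 were below 0 and 0 were called, with sums of 929.6, 1184 and 1663 CPM in controls and 1181, 885.5 and 1084 after the lesion. Oligodendrocyte lineage markers had 3 of 12 called lower and microglia markers 1 of 9. Their part in the members' changes was not tested.

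In striatum, 0 of the 36 genes passed the test after the lesion (edgeR on the 6 striatal libraries, 14288 genes), where 0.028% of all genes did (0.007% higher, 0.021% lower). At an unadjusted p below 0.05 there were 8 higher and 1 lower, against 9.3% and 8.02% of all genes tested. limma-voom called 0 members. DESeq2 called 1, Grm3 (0.69, adjusted p = 0.0144), and the fit of all 12 libraries called 3, Grm3 (0.69, adjusted p = 0.0191), Grm5 (0.51, 0.0332) and Grik2 (0.41, 0.0491). Of all genes, DESeq2 called 3.7% and the fit of all 12 libraries 7.15%. The spread between striatal libraries was wide, with a biological coefficient of variation of 14.9%. The fit of all 12 libraries took a shared 11.3%, which is too small for striatum. In 9 members the groups did not overlap, 4 higher and 5 lower, against 26.4% of all genes tested (8.8% higher, 17.6% lower). The median log2 fold change of the members was 0.16, beside 0.00 for all genes; it was 0.04 without lesioned library 1 and 0.09 without both that library and control library 2.

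Among the striatal receptor genes, Grm3 had 49.8, 44.2 and 55.4 CPM in control libraries 1 to 3 and 91.0, 64.3 and 73.5 in lesioned ones. The groups did not overlap (log2 fold change 0.68, SE 0.17, adjusted p = 0.181 by edgeR), and the value was 0.42 without the 2 libraries that stood apart. Grm5, the main group I receptor gene of projection neurons, had 364.1, 314.8 and 329.5 CPM in controls and 523.5, 371.7 and 465.1 after the lesion. Its groups did not overlap either (0.50, SE 0.16, adjusted p = 0.211), and it was at 0.30 without both libraries. Grm2 had 6.32, 29.4 and 10.7 CPM in controls and 2.56, 8.14 and 7.38 after the lesion. Control library 2 set most of its difference, which was -1.32 (adjusted p = 0.313) with that library and -0.45 without it. Grik2, a kainate subunit gene, was at 0.40 (adjusted p = 0.238) and Grik3 at 0.34 (adjusted p = 0.272), while Grik4 was at -0.68 (adjusted p = 0.315) and at -0.21 without control library 2. Without both libraries Grik2 was at 0.24, Grik3 at 0.16, Grik4 at -0.07 and Grm2 at -0.12.

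The AMPA and NMDA genes of the striatum overlapped between groups. Gria1 had 664.2, 842.1 and 601.3 CPM in controls and 611.4, 570.9 and 676.9 after the lesion (-0.12, adjusted p = 0.687). Gria2 had 848.4, 927.6 and 713.0 against 868.9, 745.7 and 849.3 CPM (0.05, adjusted p = 0.868). Control library 2 was the highest control in both genes. Grin1 had 467.9, 497.6 and 491.4 CPM in controls and 692.2, 470.9 and 566.0 after the lesion (0.32, adjusted p = 0.363), and Grin2b 528.5, 626.8 and 508.7 against 791.7, 516.4 and 648.1 (0.30, adjusted p = 0.433). Without lesioned library 1 Grin1 was at 0.12 and Grin2b at 0.09, and without both libraries that stood apart at 0.14 and 0.20. Gria1 was at 0.01 and Gria2 at 0.06 without both. Grin2a had 81.0, 217.5 and 78.5 CPM in controls against 134.7, 90.9 and 95.2. Its log2 fold change of -0.17 (adjusted p = 0.852) turned to 0.50 (adjusted p = 0.393) without control library 2, so that 1 library set its sign; without both it was at 0.25.

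The scaffold genes Dlgap3, Shank3 and Dlg4 were highest in lesioned striatal library 1. Dlgap3 had 315.8, 343.9 and 381.3 CPM in controls and 772.2, 355.2 and 475.5 after the lesion (0.70, SE 0.29, adjusted p = 0.281 by edgeR; 0.28 without lesioned library 1). Shank3 had 351.9, 365.5 and 358.8 against 642.5, 312.7 and 432.0 CPM (0.44, SE 0.26, adjusted p = 0.411; 0.08 without that library). Dlg4 had 725.8, 783.6 and 758.1 against 1061, 712.9 and 830.4 CPM (0.27, adjusted p = 0.443; 0.05 without it). In these 3 genes the lesioned libraries ranged over more than the controls and overlapped them.

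Among the Homer genes the striatal groups separated in both directions, without passing the test. Homer1 had 140.5, 139.3 and 146.5 CPM in control striatum and 291.0, 159.2 and 180.2 after the lesion, each above each control (0.64, SE 0.24, adjusted p = 0.253 by edgeR; 0.28 without lesioned library 1 and 0.27 without both). Homer2, whose product forms only the long, linking kind of protein, had 78.5, 82.6 and 77.5 CPM in controls and 32.3, 64.5 and 59.7 after the lesion, each below each control (-0.56, SE 0.21, adjusted p = 0.243; -0.30 without both). Their ratio was 1.79, 1.69 and 1.89 in controls and 9.01, 2.47 and 3.02 after the lesion (log2 difference 1.18, exact permutation p = 0.1). Homer3 had 7.75, 48.8 and 10.1 CPM in controls and 10.5, 12.6 and 10.5 after the lesion, so that its value turned from -0.93 to 0.39 without control library 2.

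Other members whose striatal groups did not overlap were Grik3 on the higher side and Grik4, Dlgap1 (-0.44), Shank1 (-0.30) and Shank2 (-0.23) on the lower side, with adjusted p of 0.272 or more. Dlgap1 had 253.1, 431.2 and 264.2 CPM in controls and 208.6, 237.4 and 226.4 after the lesion; it was at -0.15 without control library 2, and Shank1 at -0.11. Without both libraries Dlgap1 was at -0.13, Shank1 at -0.07 and Shank2 at -0.18. The remaining members, Dlg1, Dlg2, Dlg3, Dlgap2, Dlgap4, Gria3, Gria4, Grid1, Grik1, Grik5, Grin2c, Grin2d, Grin3a, Grm4, Grm7 and Grm8, lay between -0.45 and 0.50 with adjusted p of 0.281 or more. Without both libraries they lay between -0.42 (Grin2c) and 0.24 (Dlgap2), and Dlg1 (-0.06) and Grid1 (-0.02) were then below 0.

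**Figure D2:**
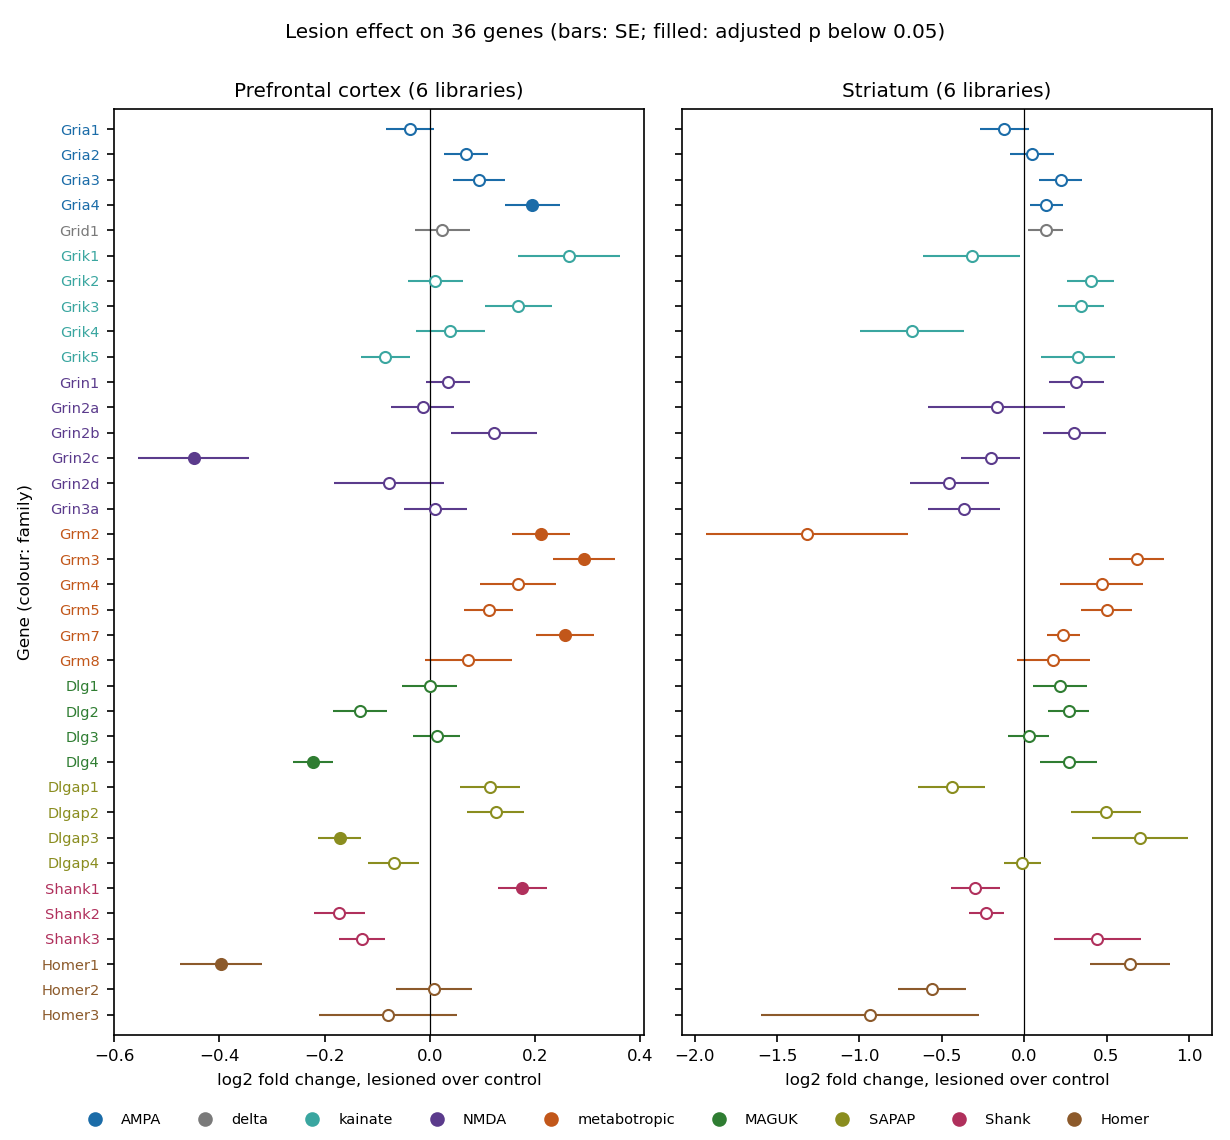
Log2 fold change of lesioned over control (x axis, different scales in the 2 panels) for the 36 genes (y axis), prefrontal cortex left and striatum right, with SE bars; filled points have an adjusted p below 0.05 and colours mark families. In prefrontal cortex the 6 metabotropic genes lie above 0 and 9 points are filled; in striatum bars are wider and 0 are filled.

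Projection neuron markers were measured in the same striatal libraries. All 15 markers were above 0 after the lesion, with a median log2 fold change of 1.27, and in 13 the groups did not overlap. By edgeR 0 of the 15 were called, with 13 at an unadjusted p below 0.05; limma-voom called 0, the fit of all libraries 9 and DESeq2 10. Their sums were 4408, 3034 and 4869 CPM in controls and 14860, 6337 and 8966 after the lesion, and no marker was at 0 in any striatal library. Dlgap3, Shank3, Homer1, Grm5 and Dlg4 were highest and Homer2 was lowest in the library with the highest marker sum. They were not alone in this. Grik5, Grin1, Grin2b, Grm3, Grm4 and Dlgap2, among others, were highest there too. Grik1, Grik4, Grin2d, Grin3a, Grm2, Dlgap1 and Shank1 were lowest there, and Gria1 was at neither end. For Dlgap3, Shank3, Homer1, Grm5 and Dlg4 the 3 lesioned libraries ranked as they did by the sum, and for Homer2 in the reverse order. Among the control libraries Homer1 ranked as the sum did and Homer2 in the reverse order. Dlgap3, Shank3, Grm5 and Dlg4 did not follow the sum there. Control library 2, the lowest control by the sum, was the highest control for Shank3 and Dlg4. Hypothalamic and border markers summed to 2306, 1540 and 1995 CPM in controls and 796.9, 2051 and 1879 after the lesion, lowest in lesioned library 1. Choroid plexus and ependymal markers summed to 91.7, 2300 and 114.0 CPM in controls and 49.9 to 77.0 after the lesion. The part of tissue makeup in the members' values was not tested.

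**Figure D3:**
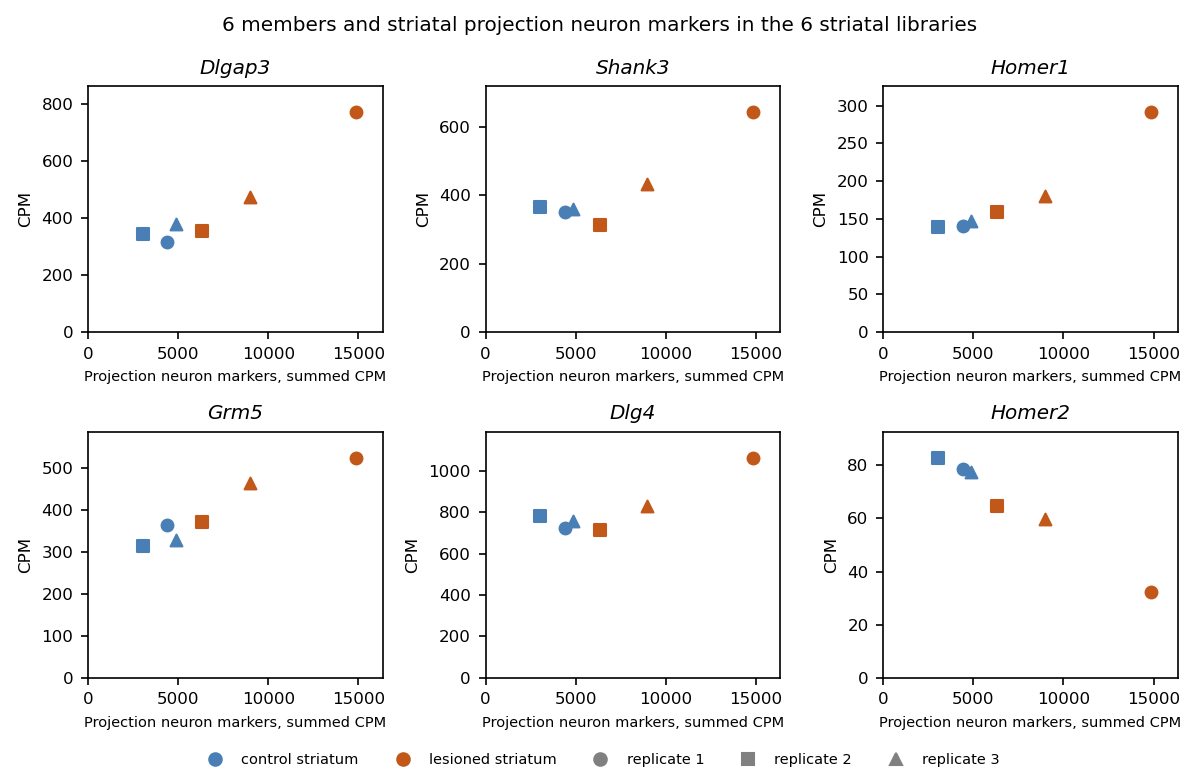
CPM of Dlgap3, Shank3, Homer1, Grm5, Dlg4 and Homer2 (y axes, linear from 0) against the summed CPM of 15 projection neuron markers (x axis) in the 6 striatal libraries, coloured by group with symbols for replicates. Lesioned library 1, at 14860 CPM of markers, is the highest for the first 5 genes and the lowest for Homer2.

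By edgeR none of the other synaptic lists held a called gene in striatum (15, 23, 20, 8 and 2 genes tested; 5, 5, 3, 1 and 0 at an unadjusted p below 0.05 in the order used above). By limma-voom there were 0 calls too. DESeq2 called 1 adhesion and 1 transport gene higher. The fit of all libraries called 3 signalling genes, 1 adhesion and 1 transport gene higher, and of the auxiliary genes 1 higher and 1 lower. Over all genes DESeq2 called 3.7% and the fit of all libraries 7.15%. The auxiliary subunit gene Shisa6 was at -1.70 (adjusted p = 0.209), with 137.6 CPM in control library 2 against 42.5 and 39.1 in the other controls and 14.2 to 27.5 after the lesion. Shisa9 was at 0.46 (adjusted p = 0.229) and Gsg1l at 0.85 (0.242). Akap5, which encodes an anchor of kinases beside PSD-95, was at 0.73 (adjusted p = 0.214), Lrrc7 at 0.61 (0.220) and Baiap2 at 0.71 (0.237). Among adhesion genes Il1rapl1 was at 0.67 (adjusted p = 0.187), Nlgn1 at 0.27 (0.265) and Lrrtm4 at 0.25 (0.285). The vesicular transporter gene Slc17a8, which marks cholinergic interneurons in striatum, had 13.0, 11.2 and 10.5 CPM in controls and 25.0, 15.2 and 19.4 after the lesion (0.85, adjusted p = 0.181). Without both libraries that stood apart these genes kept their signs, with Shisa6 at -0.65 (adjusted p = 0.0574), Slc17a8 at 0.59 and the others between 0.14 (Lrrtm4) and 0.40 (Baiap2), and none was called.

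The lesion effects of the regions were compared gene by gene in 1 fit of the 12 libraries, whose shared spread of 11.3% lies below that of striatum alone. No member passed (edgeR, 14545 genes; 0.0825% of all genes were called, 0.0138% higher and 0.0688% lower), and at an unadjusted p below 0.05 the effect was higher in striatum for 6 members and lower for 4, against 5.87% and 5.84% of all genes tested. Homer1 had the smallest p: its fold change was 1.03 higher in striatum on the log2 scale (SE 0.28, unadjusted p = 0.0032, adjusted p = 0.275). limma-voom called 0 members. DESeq2 called Homer1 (1.04, adjusted p = 0.0396), as did edgeR without both libraries that stood apart (0.67, SE 0.13, adjusted p = 0.0379) and without lesioned striatal library 2 (1.22, adjusted p = 0.0438). Shank1 (-0.48, adjusted p = 0.329), Dlg2 (0.40, 0.345), Dlgap3 (0.87, 0.347) and Dlg4 (0.49, 0.366) followed by p. Without lesioned striatal library 2 the difference passed for Dlgap3 (1.11, adjusted p = 0.0451) and Grik2 (0.53, adjusted p = 0.0451) too. Over all genes DESeq2 called 0.799%, edgeR without both libraries 0.69% and edgeR without lesioned striatal library 2 1.17%. Homer1 fell in prefrontal cortex and was higher in each lesioned striatal library than in each control one, while Shank1 rose in prefrontal cortex and was lower in each lesioned striatal library.

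Between the regions of control mice, 29 of the 36 genes differed, 7 higher in striatum and 22 lower, where 42.3% of all genes were called, 21.3% higher and 21% lower (edgeR on the 6 control libraries, 14239 genes). This fit took a shared spread of 11.3% for both regions, while the lesion fits gave 5.78% in prefrontal cortex and 14.9% in striatum. The median log2 fold change of striatum over prefrontal cortex was -0.47 for the members and 0.02 for all genes. Of 14 scaffold genes 12 were lower in striatum and 0 higher. Receptor genes were divided, with 7 of 22 higher and 10 lower. Without control striatal library 2 the counts were 8 higher and 23 lower, of which 29 were calls made with it too. Of 15 projection neuron markers 14 were called higher in control striatum and 0 lower, with a median log2 fold change of 1.69. The 11 hypothalamic and border markers tested were all called higher, with a median of 3.58. So were the 12 oligodendrocyte lineage markers. The part of tissue makeup in the members' differences between regions was not tested.

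Homer1 had the largest fall among scaffolds, from 331.0, 398.6 and 311.2 CPM in prefrontal cortex to 140.5, 139.3 and 146.5 in striatum (log2 fold change -1.44, SE 0.10, adjusted p = 3.55e-05). Shank1 was at -1.25 (SE 0.13), the SAPAP gene Dlgap1 at -1.23 (SE 0.20), Shank2 at -1.02 (SE 0.09) and Dlgap2 at -0.93 (SE 0.06). Dlgap2 had 111.9, 112.9 and 104.5 CPM in prefrontal cortex and 61.2, 65.9 and 65.1 in striatum. Dlg4 went from 1125, 1114 and 1138 CPM to 725.8, 783.6 and 758.1 (-0.73, SE 0.06, adjusted p = 6.45e-05). Shank3 was the scaffold nearest to equal, at 340.6, 342.6 and 355.4 CPM against 351.9, 365.5 and 358.8 (-0.10, SE 0.06, adjusted p = 0.182). Homer3, at 1.38 (adjusted p = 0.119), was at 0.07 without control striatal library 2. Dlg1, Dlg2, Dlg3, Dlgap3, Dlgap4 and Homer2 were lower by 0.38 to 0.86 on the log2 scale.

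Among receptor genes higher in control striatum, the NMDA subunit gene Grin2d, found in interneurons, went from 17.3, 14.1 and 16.2 CPM to 47.5, 33.5 and 46.3 (1.26, SE 0.14, adjusted p = 2.68e-04). Grik2 went from 68.8, 70.1 and 74.9 CPM to 154.4, 135.1 and 135.2 (0.84, SE 0.07, adjusted p = 6.67e-05), and Grik1 from 14.9, 16.3 and 16.0 to 33.6, 27.5 and 27.2 (0.75, SE 0.10). Grm5 went from 222.8, 227.8 and 220.5 CPM to 364.1, 314.8 and 329.5 (0.43, SE 0.07, adjusted p = 0.0015). No striatal library of these 4 genes overlapped a prefrontal one. Grm4 (0.78), Gria1 (0.67) and Grid1 (0.32) were the others called higher.

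Among those lower in striatum, Gria3 had 387.0, 409.8 and 381.7 CPM in prefrontal cortex and 193.9, 208.5 and 190.6 in striatum (-1.14, SE 0.07, adjusted p = 1.75e-05). Grm2, a presynaptic receptor of cortical and thalamic afferents, was at -2.30 (SE 0.44, adjusted p = 0.0039), and at -3.14 without control striatal library 2. Grin2a was at -1.33 (SE 0.36, adjusted p = 0.0190), and at -1.99 without it. Grm8 was at -1.06, Grm3 at -0.82, Grin2b at -0.70, Grin1 at -0.49, Grik5 at -0.45, Gria4 at -0.27 and Grin2c at -0.25. Gria2 (-0.09), Grik3 (-0.29), Grik4 (0.23), Grin3a (0.37) and Grm7 (0.05) were not called; Grin3a (0.55, adjusted p = 4.17e-05) and Grik4 (-0.23, adjusted p = 0.0355) were called without control striatal library 2. The calls of Gria4, Grin2a, Grin2c and Dlg1 were lost when 1 library was left out. For Gria4 these were control prefrontal library 1 (adjusted p = 0.0933), 2 (0.146) or 3 (0.0558) or control striatal library 3 (0.058), and for Grin2c prefrontal 1 (0.147) or 3 (0.0626) or striatal 1 (0.0993) or 3 (0.128). Grin2a was lost without prefrontal library 2 (0.0699) or striatal library 1 (0.0547) or 3 (0.0527), and Dlg1 without prefrontal library 1 (0.0533) or 2 (0.0967).

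Ratios within the AMPA family did not overlap between the control regions, though 3 against 3 libraries cannot pass the test. The ratio of Gria1 to Gria2 counts was 0.494, 0.519 and 0.491 in prefrontal cortex and 0.783, 0.908 and 0.843 in striatum, 1.68-fold higher (exact permutation p = 0.1, adjusted p = 0.2 over 18 tests). Gria3 to Gria2 went from 0.470, 0.534 and 0.482 to 0.228, 0.225 and 0.267, a change of -1.05 on the log2 scale. Grin2a to Grin2b was 0.368, 0.328 and 0.364 in prefrontal cortex and 0.153, 0.347 and 0.154 in striatum, where library 2 lay within the prefrontal range. Grm5 to Grm2 was 3.09, 3.54 and 3.23 against 57.6, 10.7 and 30.7.

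**Figure D4:**
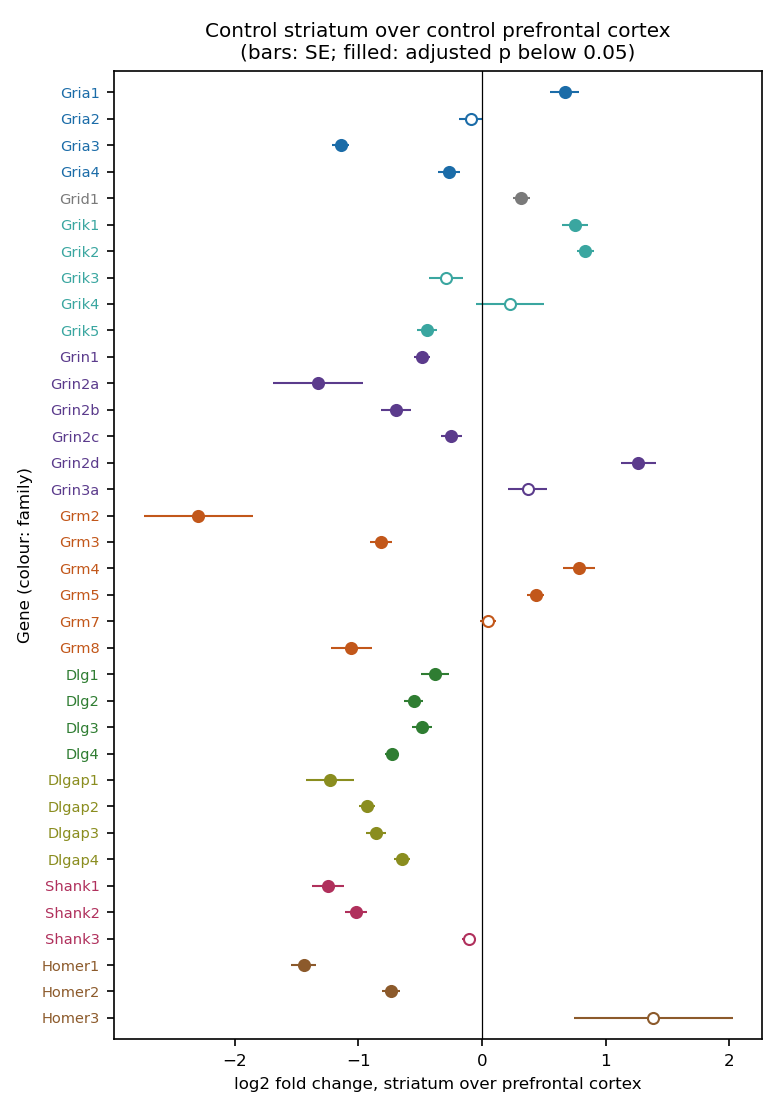
Log2 fold change of control striatum over control prefrontal cortex (x axis) for the 36 genes (y axis), with SE bars; filled points have an adjusted p below 0.05 and colours mark families. The scaffold genes, in the lower part, lie left of 0 apart from Homer3, while receptor genes fall on both sides.

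Levels of different genes were compared per kilobase of the gene's merged exons, a length that overstates the transcript where rare exons are annotated. In control prefrontal cortex Dlgap3 was the highest at 124.9 ± 1.06 CPM per kilobase (SD, n = 3), followed by Dlg4 at 85.0 ± 0.914 and Shank1 at 69.8 ± 1.78. Gria1 (65.8 ± 1.48), Grin1 (63.1 ± 2.43) and Grik5 (61.7 ± 2.69) came next. Neighbours in this order lay within about their spread, while Gria1 and Grik5 were further apart. In control striatum Gria1 led with 116.3 ± 20.7 CPM per kilobase, then Dlgap3 with 76.8 ± 7.27, Dlg4 with 57.0 ± 2.19 and Gria2 with 53.4 ± 6.98, the last 2 within their spread. The lowest were Homer3 (2.23) and Grm8 (2.26) in prefrontal cortex and Grm8 (1.21) and Grm2 (3.16) in striatum. These lengths are for levels; the fold changes above do not depend on them.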

How the data were processed

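Gene-level counts of reads for the 12 libraries were used as the authors deposited them. The submitters' processing notes name STAR 2.7.1a, featureCounts and mm10. The sources used here do not give the annotation, strand setting or handling of multi-mapping reads; counts of overlapping or antisense genes are therefore uncertain. Per the labels' protocols, mRNA from 500 ng of RNA (integrity number at least 8.9) gave stranded libraries read as 101 bp pairs.

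Members, lists and tests were chosen with earlier results of these data known. Symbols holding only multiples of 11 were left out. Counts were tested with edgeR 4.0.16 (R 4.3.3) after filterByExpr and TMM. For the lesion each region's 6 libraries were fitted alone because their spread differs. The 6 control libraries were fitted together for the difference between regions, and all 12 libraries for the difference of effects. The procedure was tested on simulated data. Libraries of a group differed beyond counting noise (chi-square per degree of freedom 3.27 or more). SE is the absolute log2 fold change over the root of F. CPM use library totals. Alternatives used DESeq2 1.42.0 and limma 3.58.1. Per-library values went to members called in any comparison (up to 4 per direction by p) and 9 fixed genes; each other synaptic list gave up to 3 genes. Gene positions and lengths are from GENCODE vM21 (GRCm38, the same assembly as mm10), which matched all 36 members, and promoter sequence from RefSeq (GRCm38.p6).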

Additional observations from a re-analysis of the deposited data

How the results depend on the processing

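Counts of members called in prefrontal cortex (5 higher, 4 lower) ranged from 0 to 6 higher and 1 to 5 lower when 1 library was left out: they were 0 and 1 without lesioned library 2, 0 and 2 without lesioned library 3, 1 and 3 without lesioned library 1, 2 and 2 without control library 1, and 2 and 5 without control library 3. With symbols of multiples of 11 kept they were 2 and 3, and with all 12 libraries in 1 fit 0 and 0. RLE factors, limma-voom and no low-count filter gave 5 and 4. In striatum DESeq2 gave 1 higher and the fit of all libraries 3, against 0; leaving out 1 library gave 0 in each case. For the difference of effects DESeq2 gave 1 higher, and leaving out both libraries that stood apart 1; leaving out 1 library gave 0 to 3. Counts between control regions stayed at 6 to 8 higher and 19 to 23 lower. The cause of these shifts was not tested.

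Counts over all genes moved too. In prefrontal cortex 484 genes were higher and 319 lower, against 11 and 19 in the fit of all libraries and 96 and 99 without lesioned library 2. In striatum 1 was higher and 3 lower, against 320 and 209 by DESeq2, 603 and 437 in the fit of all libraries, 27 and 28 without both libraries that stood apart, and 0 and 0 by limma-voom. For the difference of effects 2 were higher and 10 lower, against 56 and 60 by DESeq2, 50 and 51 without both libraries and 126 and 46 without lesioned striatal library 2.

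With the replicate number as a block, 3 members were higher and 3 lower in prefrontal cortex, and 0 in striatum and for the difference of effects. Same-numbered libraries did not deviate together (correlations from -0.112 to 0.092, against -0.154 to 0.179 for different numbers). With 3 libraries per group these values cannot tell whether same-numbered samples come from the same mouse. With the block and the length and GC correction the prefrontal counts were 4 and 5.

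Signs were followed across settings only for members called in the comparison and for the fixed genes, so the list below is not complete. In prefrontal cortex 16 members were above 0 when corrected for length and GC, against 23 without the correction. Outside the list, Homer3, Dlg1 and Grid1 turned in striatum in settings given in the text. Grik4 between control regions turned as well and was called in 1 setting, as given in the text. Among the genes followed, signs turned for the following, which were called neither in the main setting nor where the sign turned. Grin2b was called higher in prefrontal cortex in 1 other setting, as given in the text. In prefrontal cortex, corrected for length and GC, Grin1 was at -0.00655 (-0.00644 with the block) and Grin2b at -0.00286; Grin2a ran from -0.0494 to 0.0588 over libraries left out. In striatum Gria2 was at -0.0695 with the correction (-0.0659 with the block). Without both libraries that stood apart Gria1 was at 0.00835 and Grin2a at 0.249. Over libraries left out Gria1 ran from -0.221 to 0.0351, Gria2 from -0.0486 to 0.141 and Grin2a from -0.416 to 0.495. Between control regions Gria2 ran from -0.182 to 0.0065. For the difference of effects Gria1 was at 0.0453 and Grin2a at 0.262 without both libraries, and over libraries left out Gria1 ran from -0.187 to 0.0641, Gria2 from -0.122 to 0.0647, Grin2a from -0.403 to 0.501 and Grin2b from -0.0291 to 0.341. Some lesion differences of ratios turned too over libraries left out. In striatum Grin2a to Grin2b (-0.301) ran from -0.499 to 0.0906 and Dlg4 to Dlg1 (0.0279) from -0.0931 to 0.191. In prefrontal cortex Gria3 to Gria2 (0.025) ran from -0.0115 to 0.08. The other ratio differences kept their signs. Depth did not limit the members, whose lowest value was 43 counts.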
